A study of Mus musculus with 2 samples.

Results

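Blood vessel endothelial cells, the cells that line arteries, capillaries and veins, were examined in the epididymal white adipose tissue (WAT) of obese mice. In 2 single nucleus RNA sequencing libraries, 235 of the 16477 barcodes that passed the lower limits of depth were members of this class, 188 in the HF-HHT library and 47 in the HF-PBS library. They were chosen by measured values: a barcode needed at least 500 UMIs (unique molecular identifiers, each standing for 1 captured RNA molecule), over 400 genes and under 0.5% of mitochondrial UMIs. The endothelial genes Ptprb, Cyyr1, Flt1, Cdh5, Emcn and Kdr together had to reach 0.3% of its UMIs and 4 UMIs, while Prox1, Mmrn1, Reln and Flt4, markers of lymphatic vessels, had to stay under 0.1%. The levels of these 10 genes in the members therefore only describe the selection.

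Both groups were male mice aged 8 weeks at the start, which ate high-fat chow (HF) during 6 weeks without injections and during 8 further weeks of treatment. HF-HHT mice received homoharringtonine (HHT), a plant alkaloid that blocks protein synthesis, by intraperitoneal injection 3 times per week at 0.545 mg/kg. HF-PBS mice received phosphate-buffered saline (PBS) on the same schedule. HHT was dissolved in DMSO and diluted in PBS. The study used C57BL/6N and p16-Luc mice in its HF experiments, and which of these gave the nuclei is not stated in its labels. Each library held nuclei from the pooled frozen tissue of 3 mice, so each group is 1 sample. No test between the groups was possible, the intervals given here are 95% intervals of counting error alone, and a 1.5-fold difference is used as a size and not as a test.

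Endothelial cells of adipose tissue deliver fatty acids and insulin to adipocytes, and capillaries, arteries and veins differ in the genes they express. Capillary endothelium takes up lipid through CD36 and fatty acid binding proteins and anchors lipoprotein lipase with GPIHBP1. Arterial identity is maintained by Notch signaling and is marked by connexins such as Gja5, whereas veins are marked by Vwf, which encodes von Willebrand factor, and by the adhesion receptor Selp.

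The libraries held 73313558 UMIs (HF-HHT) and 76197757 UMIs (HF-PBS). Member nuclei had a median of 2691 UMIs in HF-HHT and 2483 UMIs in HF-PBS, and summed to 692006 UMIs in HF-HHT against 180486 UMIs in HF-PBS. One HF-HHT nucleus held 55364 UMIs, 8.0% of its sum, and the deepest HF-PBS nucleus held 14987 UMIs, 8.30% of its sum. The libraries shared 20 barcodes among those kept and 0 among members. Markers of other cell types were present in the members of both libraries: at 3 or more UMIs and 0.3% of UMIs for any 1 other type, they were found in 24 of 188 HF-HHT members and 10 of 47 HF-PBS members. In CPM (UMI counts scaled to a common library total), macrophage markers summed to 460 in HF-HHT members and 853 in HF-PBS members, and adipocyte precursor markers to 767 in HF-HHT and 1224 in HF-PBS. Perivascular markers summed to 237 CPM in HF-HHT and 604 CPM in HF-PBS, and adipocyte markers to 587 CPM in HF-HHT and 177 CPM in HF-PBS. Hemoglobin and other erythroid markers reached 1358 CPM in HF-HHT members against 99.7 CPM in HF-PBS members, and 1804 CPM in HF-HHT against 30.7 CPM in HF-PBS in free RNA, the profile of near-empty droplets. Markers of duct and ciliated epithelium, which is not a part of fat, stood at 795 CPM in the other HF-HHT barcodes and 48.1 CPM in the other HF-PBS barcodes. Vessels of such a neighboring tissue and vessels of fat cannot be told apart here.

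The label was checked against markers that the rule did not use. A list of 28 other endothelial genes, among them Pecam1, Tek, Erg and Cldn5, summed to 15428 CPM in HF-HHT members and 12234 CPM in HF-PBS members, against 634 CPM and 1111 CPM in the other barcodes of each library. Lymphatic markers outside the rule were near 0, at 16 CPM in HF-HHT members and 17 CPM in HF-PBS members. Barcodes just inside the limit, with 0.3 to 0.4% of rule markers, numbered 20 in HF-HHT and 8 in HF-PBS and held 12390 and 11941 CPM of the 28 genes. Those just outside, with 0.2 to 0.3%, numbered 8 in HF-HHT and 10 in HF-PBS and held 8007 and 7698 CPM. Among genes with at least 50 counts, the adhesion receptor gene Adgrl4 was 212 times as high in members as in other barcodes in HF-HHT and 343 times in HF-PBS, and the transcription factor gene Mecom 157 and 341 times. Sox17, a transcription factor of arteries, Gpihbp1, Sema3g and Btnl9 were among the 10 genes with the largest such ratios. Since the members were selected on endothelial genes, these ratios are a description.

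The first comparison was the share of these nuclei in each library. Blood endothelial nuclei made up 2.39% of kept barcodes in HF-HHT (188 of 7859, interval 2.07 to 2.75%) and 0.545% in HF-PBS (47 of 8618, interval 0.401 to 0.725%). The share was 4.39-fold higher in HF-HHT, a log2 ratio of 2.13 (interval 1.67 to 2.63). Other barcodes with at least 3 UMIs and 0.1% of Prox1, Mmrn1, Reln and Flt4, a looser limit, are called lymphatic endothelial here. They differed by a like amount, at 2.70% in HF-HHT and 0.627% in HF-PBS, a log2 ratio of 2.11. That class was mixed, since its erythroid markers summed to 5916 CPM in HF-HHT and 3.38 CPM in HF-PBS. Its lymphatic markers outside the rule summed to 1127 CPM in HF-HHT and 2272 CPM in HF-PBS. Perivascular nuclei, which wrap the same vessels, were 0.318% in HF-HHT and 0.348% in HF-PBS, and the interval of their log2 ratio of -0.13 spanned 0 (-0.96 to 0.68). A share depends on every other class in the library, so more endothelial nuclei and fewer of another type cannot be told apart, and the spread between mice is not known.

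**Figure D1:**
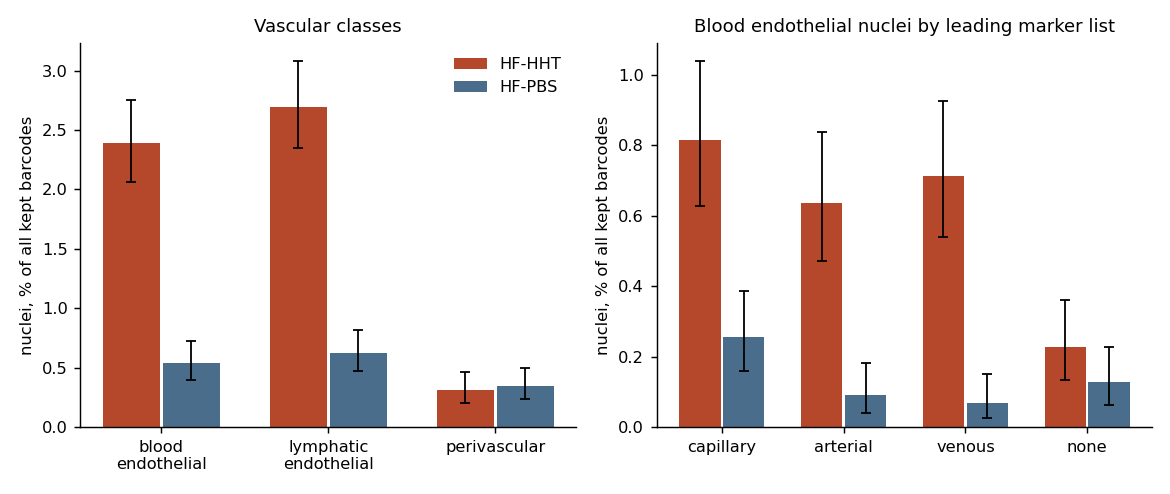
Share of kept barcodes for 3 vascular classes (left) and for blood endothelial nuclei by leading marker list (right), in % on the vertical axes, with exact binomial 95% intervals as error bars. The HF-HHT bars of the blood and lymphatic endothelial classes stand above those of HF-PBS, at 2.39% and 2.70% against 0.545% and 0.627%, while the perivascular bars overlap in their intervals. The lymphatic class was set by a looser limit and was mixed in HF-HHT.

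Blood endothelial nuclei varied along the vessel. Each nucleus was given to the capillary, arterial or venous marker list on which it stood highest relative to the mean of all members, with 3 or more UMIs of that list. These are ranges of a score and not cell types. A gene of these lists helped to place the nuclei, so its split between ranges follows in part from the rule. Such genes include Bmx, Vegfc, Selp, Icam1, Fabp5, Fabp4, Cd36 and Kit. Capillary-range nuclei were 34.04% of HF-HHT members (64 of 188, interval 27.3 to 41.3%) and 46.8% of HF-PBS members (22 of 47, interval 32.1 to 61.9%). Arterial-range nuclei were 26.6% of HF-HHT members (50 nuclei) and 17.0% of HF-PBS members (8 nuclei), and venous-range nuclei were 29.8% (56 nuclei) and 12.8% (6 nuclei). The remaining 18 HF-HHT nuclei and 11 HF-PBS nuclei met no list.

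As shares of all kept barcodes, each range was higher in HF-HHT. The log2 ratio was 1.67 for capillary-range nuclei (interval 0.95 to 2.44), 2.78 for arterial-range nuclei (1.69 to 4.07) and 3.36 for venous-range nuclei (2.14 to 4.86). A difference between the ranges was not tested. When every nucleus was thinned to 1000 UMIs, the capillary, arterial and venous shares of members were 36.3, 27.5 and 26.3% in HF-HHT and 50%, 19.0% and 16.7% in HF-PBS. Some nuclei had 2 lists at or above the mean of members and within 1.5-fold of each other. They numbered 7 of 64 capillary-range, 10 of 50 arterial-range and 1 of 56 venous-range nuclei in HF-HHT. In HF-PBS they were 2 of 22, 2 of 8 and 0 of 6. Nuclei near the limit for meeting no list were not counted. That group was 23.4% of HF-PBS members unthinned and 14.3% thinned, and 9.57% and 9.94% in HF-HHT.

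**Figure D2:**
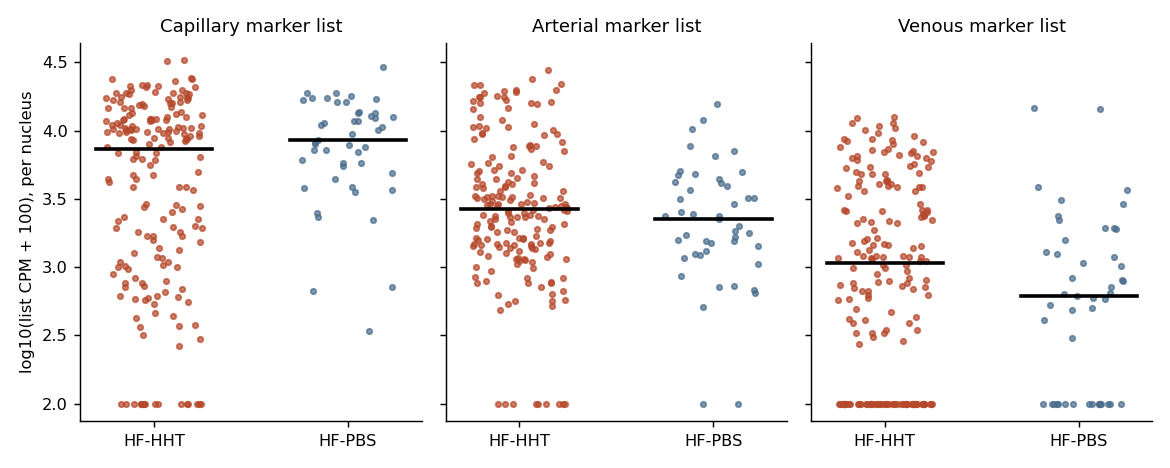
Summed CPM of the capillary, arterial and venous marker lists in each of the 188 HF-HHT and 47 HF-PBS nuclei, as log10(CPM + 100), with black lines at the medians. Nuclei at the bottom hold no UMI of the list, and the 2 libraries overlap over most of the range in each panel.

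Gene expression was compared as the CPM of UMIs summed over members. Of 6325 genes with at least 20 counts over both libraries, 1520 (24.0%) were at least 1.5-fold higher in HF-HHT and 970 (15.3%) at least 1.5-fold lower, and the median log2 ratio was 0.06. The median gene had 45 UMIs in HF-HHT and 12 UMIs in HF-PBS. Because 47 nuclei can be led by 1 of them, each ratio was computed again with each nucleus of either library left out in turn. With any 1 nucleus left out, 1247 of the 1520 higher genes (82.0%) kept a 1.5-fold difference, but only 417 of the 970 lower genes (43.0%) did, which are 19.7% and 6.59% of genes measured. In 103 of the lower genes, over 50% of the HF-PBS UMIs came from 1 nucleus.

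Several genes with the largest positive ratios had most of their UMIs in arterial-range or venous-range nuclei. Kcnt2, a sodium-activated potassium channel (GRCm38 chromosome 1, 140246158 to 140612067), had 131 UMIs in 30 HF-HHT nuclei and 3 UMIs in 3 HF-PBS nuclei, or 189 and 16.6 CPM, a log2 ratio of 3.51 (interval 1.93 to 5.81). Bmx, a kinase of arterial endothelium (chromosome X, 164192842 to 164258193), had 138 UMIs in HF-HHT and 4 UMIs in HF-PBS, a log2 ratio of 3.17 (1.78 to 5.07). Of the HF-HHT UMIs, 108 of 131 for Kcnt2 lay in venous-range nuclei, and 101 of 138 for Bmx, which is itself in the arterial list, lay in arterial-range nuclei. Venous-range nuclei were 29.8% of HF-HHT members and 12.8% of HF-PBS members, and arterial-range nuclei 26.6% and 17.0%. The genes also differed inside these ranges. In venous-range nuclei Kcnt2 had 519 CPM in HF-HHT and 45.0 CPM in HF-PBS, and in arterial-range nuclei Bmx had 685 and 120 CPM. The HF-PBS values there rest on 1 UMI of Kcnt2 and 4 UMIs of Bmx.

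The prostaglandin transporter Slco2a1 (366 CPM in HF-HHT, 77.6 CPM in HF-PBS, log2 ratio 2.24) and the glutamate receptor subunit Gria3 (150.3 and 33.2 CPM, 2.18) had a like distribution, with 179 of 253 and 95 of 104 HF-HHT UMIs in venous-range nuclei. Itgb4, the integrin β4 subunit that binds laminin, had 95 UMIs in 47 HF-HHT nuclei and 1 UMI in HF-PBS, a log2 ratio of 4.63 (interval 2.12 to 9.95), and Bmp4, a bone morphogenetic protein ligand, had 66 UMIs and 1 UMI, a log2 ratio of 4.11 (1.58 to 9.43). Both had most HF-HHT UMIs in venous-range nuclei, 73 and 45. Within that range Itgb4 and Bmp4 stood at 351 and 216 CPM in HF-HHT, and at 45.0 CPM each in HF-PBS, from 1 UMI each. Slco2a1 had 859 CPM in HF-HHT and 540 CPM in HF-PBS there, and Gria3 456 and 225 CPM. Podxl, a sialomucin of the vessel lumen, Wars, the tryptophanyl-tRNA synthetase, and Pgm5 had log2 ratios of 2.06, 2.38 and 2.08.

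Several genes with the largest negative ratios rested on few HF-PBS nuclei. Fam155a had 18 UMIs in HF-HHT and 70 UMIs in HF-PBS, a log2 ratio of -3.90, but 69 of the 70 UMIs came from 1 nucleus, and without it the log2 ratio was 2.11. Slit2, a guidance ligand, and Cnnm2, a magnesium transporter, turned round in the same way, with log2 ratios of -2.91 and -2.45 over all members, 1.45 and 0.40 without 1 nucleus. Meg3, a long noncoding RNA (43 UMIs in HF-HHT, 115 UMIs in HF-PBS, log2 ratio -3.36), and Lhfp (51 and 90 UMIs, -2.76) had 108 of 115 and 90 of 90 HF-PBS UMIs in the 11 nuclei that met no vessel list. Of Piezo2, a mechanosensitive channel, 45 of 48 HF-PBS UMIs lay there, of the receptor kinase Kit 38 of 50, and of Col15a1, a basement membrane collagen, 48 of 55. In those 11 nuclei, adipocyte precursor markers stood at 2544 CPM and perivascular markers at 1513 CPM, against 342 and 514 CPM in the 18 such HF-HHT nuclei. When members with markers of another cell type were removed, the log2 ratio of Lhfp turned to 1.90 and that of Slit2 to 1.03, and Col15a1 stood at -0.21 and Meg3 at -1.21. Piezo2 (-4.06) and Kit (-3.45) stayed as low as over all members. D5Ertd615e and Spsb1 were more widely spread, with UMIs in 12 and 13 HF-PBS nuclei and log2 ratios of -2.40 and -2.46. With the same members removed, these 2 genes stood at -2.65 and -2.85.

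**Figure D3:**
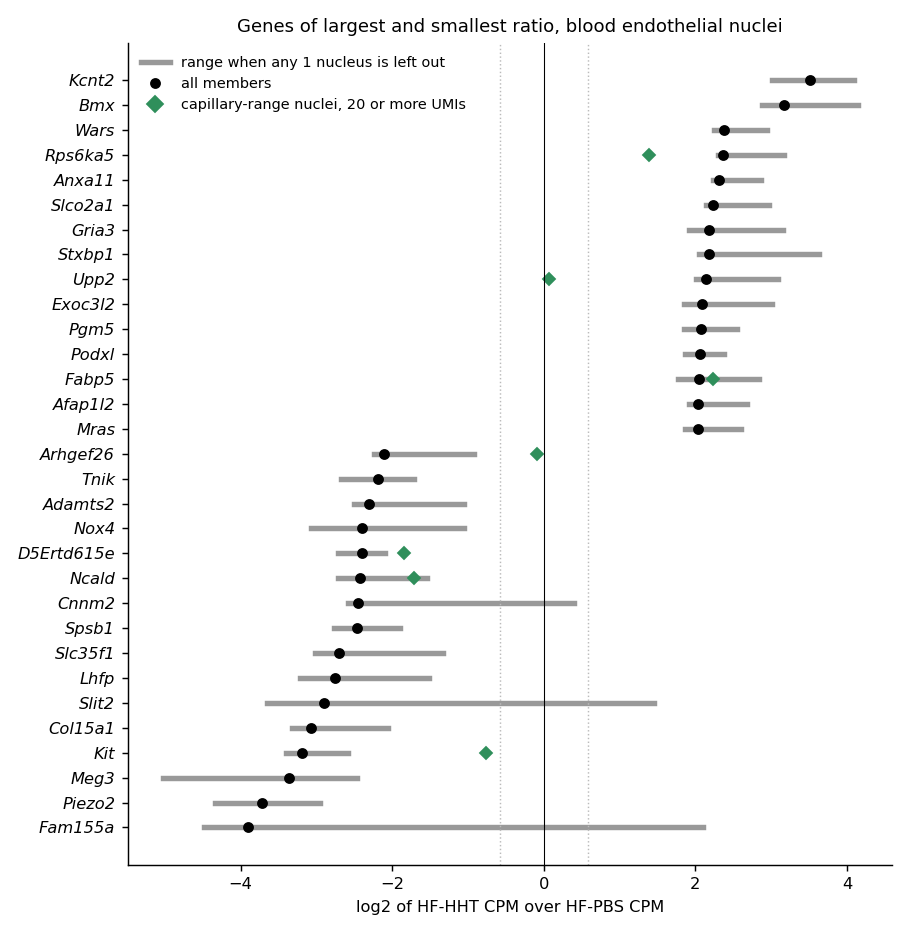
Log2 ratio of HF-HHT over HF-PBS CPM for 31 genes of largest and smallest ratio named by the rule on size (black points), the range when any 1 nucleus is left out (gray bars), and the ratio within capillary-range nuclei where 20 or more UMIs were counted (green diamonds). Dotted lines mark 1.5-fold. The bars of Fam155a, Slit2 and Cnnm2 cross 0.

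To hold the vessel range more nearly fixed, the libraries were also compared within capillary-range nuclei below the upper limits of depth that the study applied, 62 nuclei in HF-HHT (203504 UMIs) and 22 nuclei in HF-PBS (66642 UMIs). Of 2760 genes measured there, 651 (23.6%) were at least 1.5-fold higher in HF-HHT and 515 (18.7%) at least 1.5-fold lower, with a median log2 ratio of 0.03. With any 1 nucleus left out, 500 and 250 genes kept that difference. Fabp5, which carries fatty acids inside the cell (chromosome 3, 10012548 to 10016607), had 72 UMIs in HF-HHT and 5 UMIs in HF-PBS within capillary-range nuclei, a log2 ratio of 2.24, and 160.4 CPM and 38.8 CPM over all members, a log2 ratio of 2.05 (interval 0.96 to 3.40). Fabp5 is itself in the capillary list that helped to place these nuclei. In the other barcodes of the libraries, the log2 ratio of Fabp5 was -0.30. Kcnt2 and Bmx had 2 and 0 UMIs in these HF-HHT nuclei.

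Genes of endothelial identity outside the rule were mostly level or higher in HF-HHT. Of 28 measured, 10 were at least 1.5-fold higher, all 10 of them with any 1 nucleus left out, and 2 lower, neither of which kept that size. The shares over all genes were 24.0% higher and 15.3% lower, or 19.7% and 6.59% with any 1 nucleus left out. The median log2 ratio of the 28 genes was 0.43, against 0.06 over all genes measured. The median of this list was 0.29 with members holding markers of another cell type removed. In capillary-range nuclei it was 0.26, against 0.03 over all genes measured there. Eng, a co-receptor for bone morphogenetic proteins, stood at 588 CPM in HF-HHT and 255 CPM in HF-PBS, a log2 ratio of 1.21 (interval 0.76 to 1.68). Calcrl, the adrenomedullin receptor, had 587 and 205 CPM, a log2 ratio of 1.52 (1.03 to 2.04), and Mecom, a transcription factor, had 4023 and 2532 CPM, a log2 ratio of 0.67 (0.52 to 0.81). Within capillary-range nuclei the ratios of Eng, Calcrl and Mecom were 0.99, 3.06 and 0.93.

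Among shear stress, bone morphogenetic protein (BMP) and nitric oxide genes, 14 of 28 measured were at least 1.5-fold higher in HF-HHT and 4 lower, and 13 and 2 kept that size with any 1 nucleus left out. The median log2 ratio was 0.64, and 0.41 in capillary-range nuclei (8 of 18 higher, 2 lower). With members holding markers of another cell type removed, the median was 0.51. The shares over all genes were 24.0% higher and 15.3% lower, or 19.7% and 6.59% with any 1 nucleus left out. In capillary-range nuclei the shares over all genes were 23.6% and 18.7%. Besides Bmp4, the type I receptor Acvrl1 (log2 ratio 1.13), the inhibitor Smad7 (1.09), the BMP target genes Id1 (0.81) and Id3 (1.97) and the vasoconstrictor peptide gene Edn1 (1.30) were higher. Id3 had only 3 UMIs in HF-PBS, and with nuclei thinned to 1000 UMIs its log2 ratio was -0.44. Smad1, which carries the BMP signal to the nucleus, was among the lower genes, at 201 CPM in HF-HHT and 609 CPM in HF-PBS, a log2 ratio of -1.60 (interval -1.97 to -1.23). It kept this in capillary-range nuclei, with 53 UMIs in HF-HHT and 56 UMIs in HF-PBS, a log2 ratio of -1.69, while its ratio in all other barcodes was -0.09.

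Among matrix genes of the vessel, more were lower than higher in HF-HHT. Of 28 basement membrane and integrin genes, 14 were at least 1.5-fold lower, 12 lay between and 2 were higher (Itgb4 and Thsd4), where 15.3% of all genes were lower. The median log2 ratio of the list was -0.57, or -0.31 with members holding markers of another cell type removed, and 8 of the 14 kept that size with any 1 nucleus left out. Col4a1 and Col4a2, the chains of type IV collagen, gave the most counts: Col4a2 had 255 UMIs in 87 HF-HHT nuclei and 238 UMIs in 35 HF-PBS nuclei, or 368 and 1319 CPM, a log2 ratio of -1.84 (interval -2.10 to -1.58), and Col4a1 had 422 and 1197 CPM, a log2 ratio of -1.50 (-1.76 to -1.24). Of the HF-PBS UMIs of Col4a2, 140 of 238 lay in the 11 nuclei that met no vessel list, where adipocyte precursor and perivascular markers were high, and with members holding markers of another cell type removed its log2 ratio was -1.76. Within capillary-range nuclei the ratios were -0.89 for Col4a2 and -1.01 for Col4a1, nearer to 0 than over all members, and 5 of 14 measured genes of the list were lower and 0 higher. Genes linked to endothelial-to-mesenchymal transition gave 10 of 19 lower and 2 higher over all members. However, the collagens Col1a1, Col1a2 and Col3a1 among them are also made by adipocyte precursors. On the log2 scale the median of this list was -0.75, or -0.42 without members holding markers of another cell type. Within capillary-range nuclei the median was near 0, at -0.03, and 4 of 11 measured genes were lower and 1 higher. Of all genes measured there, 18.7% were lower and 23.6% higher. Zeb2, a transcriptional repressor, had 699 CPM in HF-HHT and 1474 CPM in HF-PBS, a log2 ratio of -1.08 over all members. In capillary-range nuclei the log2 ratio of Zeb2 was -2.33, but 60 of its 84 HF-PBS UMIs there came from 1 nucleus, and the ratio ran from -2.96 to -0.60 with any 1 nucleus left out.

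Angiogenic and Notch genes gave mixed values, to be read beside the 24.0% of all genes that were higher and the 15.3% that were lower. Of 17 tip cell and angiogenic genes, 3 were at least 1.5-fold higher and 5 lower, the lower ones including Col4a1, Col4a2 and Igfbp3, an IGF binding protein (10 UMIs in HF-HHT, 26 UMIs in HF-PBS, log2 ratio -3.32). In VEGF and angiopoietin signaling, 2 of 14 were higher and 1 lower. Vegfc, a ligand of VEGF receptors, had 290.5 CPM in HF-HHT and 149.6 CPM in HF-PBS (log2 ratio 0.96), with 149 of its 201 HF-HHT UMIs in arterial-range nuclei. Since Vegfc is itself in the arterial list, this placing and its level in capillary-range nuclei follow in part from the rule. The Vegfc ratio was -0.30 when rule markers had to reach 0.6% of UMIs and -2.20 in capillary-range nuclei, where it had 4 UMIs in HF-HHT and 6 UMIs in HF-PBS. In Notch signaling, 2 of 16 were higher and 3 lower. Maml2, a coactivator of Notch, was 1767 and 1080 CPM (log2 ratio 0.71, and 1.02 in capillary-range nuclei), and the endothelial receptor Notch4 was 52.0 and 122 CPM (-1.23).

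Lipid handling genes gave mixed values. For the counts below, 24.0% of all genes measured were higher and 15.3% lower. Cd36, the fatty acid transporter, stood at 4321 CPM in HF-HHT and 4427 CPM in HF-PBS, a log2 ratio of -0.04 (interval -0.15 to 0.08), and Pparg, a lipid-sensing nuclear receptor, at 1806 and 1867 CPM, -0.05 (-0.22 to 0.13). Fabp4, a fatty acid binding protein like Fabp5, had 2631 CPM in HF-HHT and 1718 CPM in HF-PBS, a log2 ratio of 0.62 (0.44 to 0.79). The Fabp4 ratio was 0.36 at its lowest with any 1 nucleus left out, 0.16 in capillary-range nuclei and 1.68 in the other barcodes. Like Fabp5, Fabp4 and Cd36 are in the capillary list. Over the list, 9 of 24 were at least 1.5-fold higher and 2 lower, with a median log2 ratio of 0.14. The caveolar coat gene Cavin1 (log2 ratio 0.85) and Cav2 (0.72) were among the higher, and the lipoprotein receptor Lrp1 (-1.10) and the cholesterol exporter Abcg1 (-0.99) were the 2 lower ones. In insulin and IGF response, 3 of 20 were higher and 2 lower. Insr, the insulin receptor, had 582 CPM in HF-HHT and 781 CPM in HF-PBS, a log2 ratio of -0.42 over all members and -1.16 in capillary-range nuclei.

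Junction genes gave 4 of 18 higher and 2 lower, near the 24.0% and 15.3% of all genes. Magi1, a scaffold of junctions, had the most counts, at 2519 CPM in HF-HHT and 4892 CPM in HF-PBS, a log2 ratio of -0.96 (interval -1.08 to -0.84), and -0.73 in capillary-range nuclei. Among leukocyte adhesion and inflammation genes, 7 of 17 were higher and 3 lower. The venous adhesion receptors Selp (log2 ratio 1.76) and Icam1 (0.84) were higher over all members but had 3 and 5 UMIs in the capillary-range HF-HHT nuclei, and Selp stood at -0.54 with nuclei thinned to 1000 UMIs. Selp and Icam1 are in the venous list, so few UMIs in capillary-range nuclei follow in part from the rule. Nfkbia, the inhibitor of NF-κB, was lower over all members (log2 ratio -1.01) and in capillary-range nuclei (-1.89).

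Many interferon response genes were higher. Of 24 measured, 12 were at least 1.5-fold higher in HF-HHT and 0 lower, and the list had its median log2 ratio at 0.59. Within capillary-range nuclei 11 of 20 were higher and 0 lower, and the median was 0.80. Of all genes measured, 24.0% were higher and 15.3% lower over all members, and 23.6% and 18.7% in capillary-range nuclei. With every nucleus thinned to 1000 UMIs, the median of the list changed sign and was -0.04. It was 0.36 with members holding markers of another cell type removed. Iigp1, an interferon-induced GTPase, had 325 UMIs in 71 HF-HHT nuclei and 28 UMIs in 12 HF-PBS nuclei, or 469.6 and 155 CPM, a log2 ratio of 1.60 (interval 1.04 to 2.21), and 154 and 8 UMIs in capillary-range nuclei, 2.66. Gbp2, a guanylate binding protein, had 88.1 CPM in HF-HHT and 16.6 CPM in HF-PBS (log2 ratio 2.41). Other barcodes of the libraries differed too, with log2 ratios of 4.05 for Iigp1 and 3.70 for Gbp2, and the list summed to 6964 CPM in HF-HHT and 3620 CPM in HF-PBS in free RNA. From markers of macrophages, lymphocytes, adipocytes and mesothelium in the members, free RNA was estimated at 22.1% of their UMIs in HF-HHT and 19.7% in HF-PBS. With it subtracted, the median of the interferon list was 0.34 and the log2 ratio of Gbp2 was 1.46. Cd274, the immune checkpoint ligand PD-L1, had 47 UMIs in 29 HF-HHT nuclei and 1 UMI in HF-PBS, a log2 ratio of 3.62 (1.07 to 8.95). With free RNA subtracted, the log2 ratio of Cd274 was 1.12. Cd274 is the highest gene of the MHC and antigen presentation list, where 5 of 17 measured genes were higher and 4 lower. With any 1 nucleus left out, 4 and 2 kept that size, the 2 lower ones being H2-Ab1 and H2-Eb1. Among all genes measured, 19.7% were higher and 6.59% lower in this way.

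Of 18 glucocorticoid response genes measured, 11 were at least 1.5-fold lower in HF-HHT, 6 lay between and 1 was higher, and the median of the list was -0.72 on the log2 scale. In capillary-range nuclei 5 of 9 were lower and 0 higher, and the median was -0.68. All genes measured gave 15.3% lower and 24.0% higher over all members, and 18.7% lower and 23.6% higher in capillary-range nuclei. Fkbp5, which encodes a chaperone of the glucocorticoid receptor, had 392 CPM in HF-HHT and 1103 CPM in HF-PBS, a log2 ratio of -1.49 (interval -1.76 to -1.22), and Zbtb16, a transcription factor, 490 and 1219 CPM, -1.32 (-1.56 to -1.06). Dusp1, a phosphatase of MAP kinases, and Ddit4, an inhibitor of mTOR, had ratios of -2.18 and -2.52. Fkbp5, Dusp1 and Ddit4 were also lower in the other barcodes, with log2 ratios of -1.86, -2.22 and -1.86, and Zbtb16 stood at -0.28 there. With any 1 nucleus left out, 5 of the 11 kept a 1.5-fold difference, among them these 4. Among all genes measured, 6.59% were lower and kept that size.

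Clock genes differed in both directions. Arntl, which encodes BMAL1, had 23.1 CPM in HF-HHT and 99.7 CPM in HF-PBS (log2 ratio -2.11), and its relative Npas2 had 15.9 and 72.0 CPM (-2.18). The repressors Nr1d1 (28 UMIs in HF-HHT, 1 UMI in HF-PBS) and Per3 (37 and 2 UMIs) had log2 ratios of 2.87 (interval 0.27 to 8.22) and 2.27 (0.32 to 5.37), though Per3 stood at -0.03 with nuclei thinned to 1000 UMIs. Over the list, 6 of 13 were at least 1.5-fold higher and 3 lower, where 24.0% and 15.3% of all genes were. In the other barcodes Arntl, Npas2, Nr1d1 and Per3 stood at -1.52, -1.45, 1.37 and 2.01. The sources used here do not give the hour of tissue collection, and its part was not tested.

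**Figure D4:**
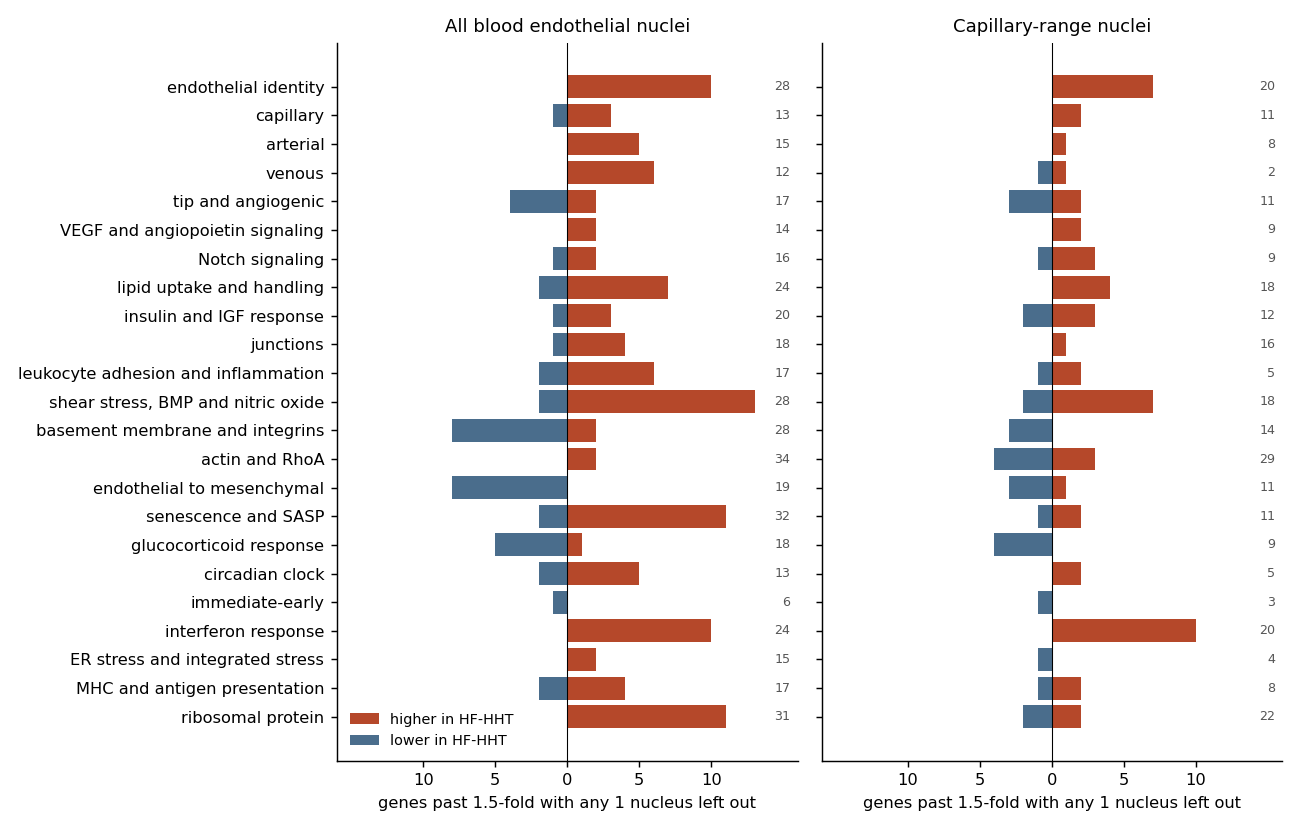
Number of genes of each list that were at least 1.5-fold higher (right of 0) or lower (left of 0) in HF-HHT with any 1 nucleus left out, over all members (left panel) and in capillary-range nuclei (right panel), with the number measured in gray. Interferon response genes lie to the right in both panels (10 of 24 and 10 of 20), and basement membrane genes mostly to the left (8 of 28 and 3 of 14). Of all genes measured, 19.7% (left panel) and 18.1% (right panel) were higher in this way, and 6.59% and 9.06% lower.

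Senescence and secretory phenotype genes gave 12 of 32 at least 1.5-fold higher in HF-HHT and 7 lower (median log2 ratio 0.35), and in capillary-range nuclei 2 of 11 higher and 1 lower. The median of the list was 0.19 with members holding markers of another cell type removed. Over all genes, 24.0% were higher and 15.3% lower, and in capillary-range nuclei 23.6% and 18.7%. The higher ones with any 1 nucleus left out included Vegfc, Icam1, Edn1 and Bmp6, and the lower ones included Igfbp3. Stress genes of the endoplasmic reticulum gave 2 of 15 higher and 2 lower. Ribosomal protein genes gave 14 of 31 higher and 0 lower over all members (median log2 ratio 0.53), but in capillary-range nuclei 2 of 22 were higher and 5 lower (median -0.08). Their sum was 3188 CPM in HF-HHT members and 2316 CPM in HF-PBS members, and 7252 and 3313 CPM in free RNA. With free RNA subtracted, the median of the ribosomal protein list was 0.029. Of the cell cycle list only 2 of the genes reached 20 counts.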

How the data were processed

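Nuclei of frozen epididymal WAT from HF-HHT and HF-PBS mice were stained with DAPI, flow-sorted and sequenced with the 10x Genomics 3′ assay, in 1 library per group of 3 pooled mice. Per the submitters' processing notes the authors used Cell Ranger 5.0.0 on a mouse mm10 reference, and the deposited counts are whole UMI counts for every barcode, with no normalization. The sources used here do not say if reads in introns entered the counts.

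Barcodes were selected on the limits given in the report, with no doublet caller, and UMIs were summed per library and scaled to CPM. A gene was measured with at least 20 counts over both libraries. Ratios carry exact 95% intervals of 2 Poisson counts, and shares have exact binomial intervals; both cover counting error only and treat UMIs as independent, which nuclei that hold many UMIs of 1 gene do not meet. A gene at 0 in a library was set at a floor of 3 counts, and no ratio was given where that floor did not fix a direction.

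Genes are named by rule: the 10 highest and 10 lowest ratios among genes of 30 or more counts in the higher library, 3 in the other, and 2 times the CPM of free RNA and of other barcodes; 6 and 6 more without the last limit; the 2 highest and 2 lowest of each list; the markers of the rule; and the 10 genes highest over other barcodes. Other list members are named after their values were seen. Some genes that the rule names are not reported here. The members and gene lists were chosen with earlier results of these data known. Alternatives were scaling, filters, thinning, free RNA and the selection of nuclei; the comparisons within capillary-range nuclei and with any 1 nucleus left out were added after seeing the data. Python 3.11.15, numpy 2.4.6, scipy 1.17.1, pandas 2.3.3, R 4.3.3 and edgeR 4.0.16 (TMM factors) were used, and the intervals were checked on simulated sums. Coordinates (GRCm38) come from GENCODE, and all 153 genes looked up by identifier were found.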

Additional observations from a re-analysis of the deposited data

How the results depend on the processing

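The higher share of blood endothelial nuclei in HF-HHT was kept under every selection tried. Its log2 ratio ranged from 2.11 (UMIs and genes below the 95th percentile) to 2.28 (members with markers of another cell type removed). For parts of the class it was 1.67 (capillary-range), 2.78 (arterial-range) and 3.36 (venous-range). Scaling by TMM or median-of-ratios raised all log2 ratios of genes by 0.05 and 0.03. With the setting 'no minimum beyond 1 count over both libraries', 2609 of 9919 genes were higher (26.3%) and 1946 were lower (19.6%). With the setting 'at least 50 counts over both libraries', 657 of 3557 genes were higher (18.5%) and 477 were lower (13.4%). With the setting 'every nucleus thinned to 1000 UMIs', 578 of 2354 genes were higher (24.6%) and 414 were lower (17.6%). With the setting 'capillary-range nuclei alone', 651 of 2760 genes were higher (23.6%) and 515 were lower (18.7%). With the setting 'any 1 nucleus left out', 417 of 6325 genes were lower (6.59%). Log2 ratios of named genes past 1.5-fold that changed sign are as follows, with the cause not tested except for any 1 nucleus left out. With the setting 'rule markers at least 0.6% of UMIs' these were Fam155a (0.85), Col15a1 (0.43), Nox4 (0.071), Cnnm2 (1.94), Adamts2 (0.85), Arhgef26 (0.94), Unc5b (0.85), Vegfc (-0.30), Plcg1 (0.28). With the setting 'members with markers of another cell type removed' these were Slit2 (1.03), Lhfp (1.90), Cnnm2 (0.48), Adamts2 (1.06), Unc5b (1.27). With the setting 'no UMI of a lymphatic marker' these were Fam155a (1.98), Angpt1 (-0.088). With the setting 'every nucleus weighted equally' these were Tll1 (0.10), Atf4 (0.11). With the setting 'every nucleus thinned to 1000 UMIs' these were interferon response (-0.042), Cnnm2 (1.43), Ramp2 (0.56), Sgk1 (0.78), Sox4 (-1.03), Plcg1 (1.09), Jag2 (0.56), Selp (-0.54), Id3 (-0.44), Arhgef12 (-0.041), Per3 (-0.026), Adarb2 (0.090). With the setting 'without the deepest 5% of members' these were Fam155a (2.15), Cnnm2 (0.26), Unc5b (1.47), Atf4 (0.47). With the setting 'capillary-range nuclei alone' these were Tnik (1.09), Adamts2 (0.61), Tll1 (2.25), Sox4 (-0.39), Vegfc (-2.20), Igfbp5 (-0.026), Igfbp7 (0.11), Cgnl1 (-1.10), Smad3 (-0.026), Ern1 (-0.29), Ezh2 (0.13). With the setting 'any 1 nucleus left out' these were Fam155a (2.11), Slit2 (1.45), Cnnm2 (0.40), Unc5b (1.53), Tll1 (0.60), Adarb2 (1.07). Over all values of named genes and list medians, these included, 2086 stayed within the counting interval and 330 left it. A further 51, all past 1.5-fold in the main setting, changed sign. Smaller values that changed sign are counted by the interval alone. For a list median, the interval had the width of that of the list's summed UMIs, set around the median. No ratio was given where the floor fixed no direction. No paired analysis was possible because each group is 1 library.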

Other observations

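Barcodes that met the endothelial limit but were left out by the limit on lymphatic markers numbered 28 in HF-HHT and 6 in HF-PBS, and the 28 other endothelial genes summed to 7390 CPM in HF-HHT and 6059 CPM in HF-PBS there, below the values of members. A further 4 HF-HHT barcodes and 0 HF-PBS barcodes reached 0.3% on 3 marker UMIs and were left out by the limit of 4. The 1 HF-HHT nucleus with 55364 UMIs was capillary-range.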
